A study of Triticum aestivum with 12 samples.

Results

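Besides heat shock protein genes, the study checked 8 heat response genes of wheat anthers by qPCR, and these are described here in the RNA-seq counts that preceded that check. They are all the genes of the study's primer table that are neither heat shock protein genes, of which the table holds 2, nor its 2 reference genes, so the 8 were taken from 266760 gene models. Heat-stressed anthers came from plants of the heat-sensitive winter wheat ‘Mv 17-09’ and of the tolerant ‘Ellvis’ kept at 35 °C for 24 h, starting the day before the onset of meiosis, and anthers of untreated plants of the same cultivar were the controls. Each of the 4 groups had 3 libraries of ribosome-depleted total RNA, which the study calls biological replicates. P-values therefore measure the spread between these libraries, and each cultivar stands for 1 genotype. The study selected the 8 genes on their heat response in these same libraries. The heat changes given below, and which of them pass a threshold, therefore only describe that choice. No p-value of the 8 genes is given for them. In whole anthers, fewer cells of a type and less RNA per cell cannot be told apart.

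An anther holds the pollen mother cells, the tapetum that feeds them, and the wall layers around both. Heat at meiosis is known to lower pollen fertility in cereals, and ethylene, flavonoids and water channels are among the systems that plants adjust under heat. The 8 genes fall into 4 metabolic enzymes, 1 membrane channel, 2 transcription factors and 1 gene of unknown function. Wheat carries A, B and D copies of most genes, and each of the 8 is 1 such copy. TaPAD (TraesCS5A03G1210200) is annotated as a phenylacetaldehyde reductase, an enzyme that in tomato makes the scent alcohol 2-phenylethanol. TaN2O (TraesCS2B03G1307800) is a naringenin,2-oxoglutarate 3-dioxygenase-like gene and TaF3D (TraesCS4B03G0902300) a flavanone 3-dioxygenase 2-like gene, both named after the step that hydroxylates flavanones on the way to flavonols and anthocyanins. TaACC (TraesCS2B03G1056900) encodes a 1-aminocyclopropane-1-carboxylate synthase-like protein, the enzyme that makes the direct precursor of ethylene. TaNIP (TraesCS6B03G0952900) encodes an aquaporin NIP2-1-like channel, whose rice relative Lsi1 takes up silicic acid. TaWRKY70 (TraesCS2A03G1143500) is a WRKY transcription factor, and WRKY70 of Arabidopsis acts in defence signalling between salicylic acid and jasmonic acid. TaGRAS (TraesCS3D03G0851800) is a GRAS family protein RAD1-like gene, named after a regulator of arbuscule development in legumes. TaUNK1 (TraesCS5A03G0186300) is annotated as uncharacterized.

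In the IWGSC RefSeq v2.1 assembly, the RefSeq gene paired with each of the 8 IDs lay on the chromosome that the ID names. TaPAD spans 682000107 to 682004529 and TaUNK1 spans 87114955 to 87115758 on chromosome 5A. TaACC spans 600609271 to 600612060 and TaN2O spans 724985091 to 724987502 on chromosome 2B. TaGRAS spans 501692808 to 501694541 on 3D, TaNIP 599649693 to 599653114 on 6B, TaWRKY70 727199360 to 727200951 on 2A, and TaF3D 639496475 to 639500759 on 4B. Strand and exon structure were not used here.

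The qPCR primer pairs of 4 members are printed 5′ to 3′, because these are the genes with the largest heat changes or with opposite directions in the cultivars, and the primers are the part of these genes whose sequence is given in the sources used here. All letters are lower case because no part of a primer is singled out.
TaNIP forward: ccaaagagcaagcgagctaa
TaNIP reverse: gtggccattttccaagacgaa
TaWRKY70 forward: aatggtcgatcttcccgattg
TaWRKY70 reverse: acacatgggacggatggatg
TaGRAS forward: ctcgtgcttggatggaaggg
TaGRAS reverse: aatggtccgcaaaagtgtcc
TaUNK1 forward: agcgatggaacatgtcttgc
TaUNK1 reverse: gcagcagcagcaaactatcg
The primers were 20 or 21 bases long. Where each primer lies within its gene, and whether a pair amplifies 1 copy alone, was not determined, and the qPCR readings themselves were not analysed here.

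Levels are given as counts and as CPM, counts relative to the library total, scaled by TMM (trimmed mean of M-values) factors. The marker gene values in this paragraph are the exception, being CPM from library totals without these factors. Since CPM is not corrected for gene length, levels are compared between groups and not between genes. ‘Ellvis’ control replicate 1 stood apart, with 1831675 counts against 9336312 to 20846135 in the other 11 libraries. In it 1 count is worth 0.565 CPM, against 0.0525 to 0.107 CPM elsewhere, and a count of 0 allows up to 1.69 CPM (3 counts, counting error only). Its 14 meiocyte marker genes averaged 1.78 log2 CPM, against 2.01 to 2.59 in the other libraries, and none of them was at 0 in any group. Its 31 tapetum marker genes of sporopollenin synthesis summed to 34947 CPM, against 16867 and 17973 CPM in the other ‘Ellvis’ controls. The same tapetum genes summed to 5207 to 6748 CPM in heat-stressed ‘Mv 17-09’, against 20176 to 22449 CPM in ‘Mv 17-09’ controls, and to 17446 to 20740 CPM in heat-stressed ‘Ellvis’. Of the 31, 2 had no count in any of the 4 groups. These markers stand for sporopollenin synthesis alone: of the other 171 genes in the study's tapetum table, 90 were tested. Of these 90, 19 were called higher and 27 lower in heat-stressed ‘Mv 17-09’, where 4.67% of all genes tested were called higher and 6.93% lower. In heat-stressed ‘Ellvis’ 13 were called higher and 3 lower, where 1.98% of all genes were called higher and 1.64% lower. The part that these tapetum and depth differences play in the values of the 8 genes was not tested, and ‘Ellvis’ values are given with and without control replicate 1.

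TaNIP, the aquaporin gene, had the largest fitted heat change of the 8 genes in both cultivars, although in ‘Ellvis’ this order with TaWRKY70 turned under some alternatives. It had 253, 325 and 203 counts in heat-stressed ‘Mv 17-09’ (26.4, 34.1 and 21.7 CPM), against 0, 0 and 2 counts in its controls (0, 0 and 0.13 CPM). In heat-stressed ‘Ellvis’ it had 105, 71 and 149 counts (7.15, 3.97 and 8.2 CPM), against 5, 0 and 1 counts in controls (2.82, 0 and 0.0716 CPM). TaNIP had 0 to 2 counts in 5 of the 6 control libraries and 5 counts in the shallow one, whose 2.82 CPM came near the lowest heat-stressed ‘Ellvis’ library. It was present in all 6 heat-stressed libraries and higher in each heat-stressed ‘Mv 17-09’ library than in any heat-stressed ‘Ellvis’ library. Summed over libraries, 781 counts in heat-stressed ‘Mv 17-09’ against 2 in controls gave a ratio of 676 per sequenced count (95% exact interval 186 to 5590). In ‘Ellvis’, 325 against 6 counts gave a ratio of 34.8 (15.8 to 95.6). Of those 6 counts 5 were in control replicate 1, and without it 325 against 1 count gave 198 (35.2 to 7830). These intervals cover counting error only. The fitted log2 fold change was 9.10 (SE 1.87) in ‘Mv 17-09’, the 11th highest of 70527 genes tested, and 5.01 (SE 1.1) in ‘Ellvis’, the 79th highest. Without control replicate 1 it was 7.29 (SE 2) in ‘Ellvis’. The heat change in ‘Mv 17-09’ exceeded that in ‘Ellvis’ by 4.09 on the log2 scale (SE 2.17), or by 1.83 (SE 2.45) without that library, so the size of this gap rests on it. The fitted ‘Mv 17-09’ value depended on the control counts in the same way, being 11.5 without ‘Mv 17-09’ control replicate 3, which held the only 2 counts, and 8.49 without control replicate 2. The ‘Ellvis’ value was 3.96 without control replicate 2, where that of TaWRKY70 was -4.75. TaWRKY70 also had the larger change in ‘Ellvis’ with DESeq2 (-5.05, against 3.05 for TaNIP), without control replicate 3 (-4.82, against 4.45) and without heat-stressed replicate 3 (-5.11, against 4.8).

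TaACC, the gene of ethylene precursor synthesis, lay above the controls in every heat-stressed library of both cultivars, with the smallest standard errors of the 8 genes. It had 231, 172 and 156 counts (24.1, 18.0 and 16.7 CPM) in heat-stressed ‘Mv 17-09’, against 97, 122 and 103 counts (6.5, 6.4 and 6.71 CPM) in controls. Heat-stressed ‘Ellvis’ had 129, 122 and 153 counts (8.79, 6.83 and 8.42 CPM), against 12, 66 and 65 counts (6.78, 3.91 and 4.66 CPM) in controls. The nearest ‘Ellvis’ libraries, at 6.83 CPM and at 6.78 CPM in control replicate 1, lay closer than the 0.565 CPM worth of 1 count in that control. Mean levels were 19.6 ± 3.93 CPM in heat-stressed ‘Mv 17-09’ and 6.54 ± 0.156 CPM in its controls, and 8.01 ± 1.04 CPM in heat-stressed ‘Ellvis’ and 5.12 ± 1.49 CPM in its controls (SD, n = 3 each). Heat-stressed ‘Mv 17-09’ was far above the other groups. The controls of the cultivars overlapped only through ‘Ellvis’ control replicate 1, with 12 counts, and without it the ‘Ellvis’ controls averaged 4.28 ± 0.527 CPM (SD, n = 2), below all ‘Mv 17-09’ controls. The log2 fold change was 1.58 (SE 0.17) in ‘Mv 17-09’, a 3-fold level, and 0.82 (SE 0.20) in ‘Ellvis’, a 1.77-fold level that stays under the 2-fold threshold used for calls. The change in ‘Mv 17-09’ exceeded that in ‘Ellvis’ by 0.76 (SE 0.26), or by 0.67 (SE 0.24) without ‘Ellvis’ control replicate 1.

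**Figure D1:**
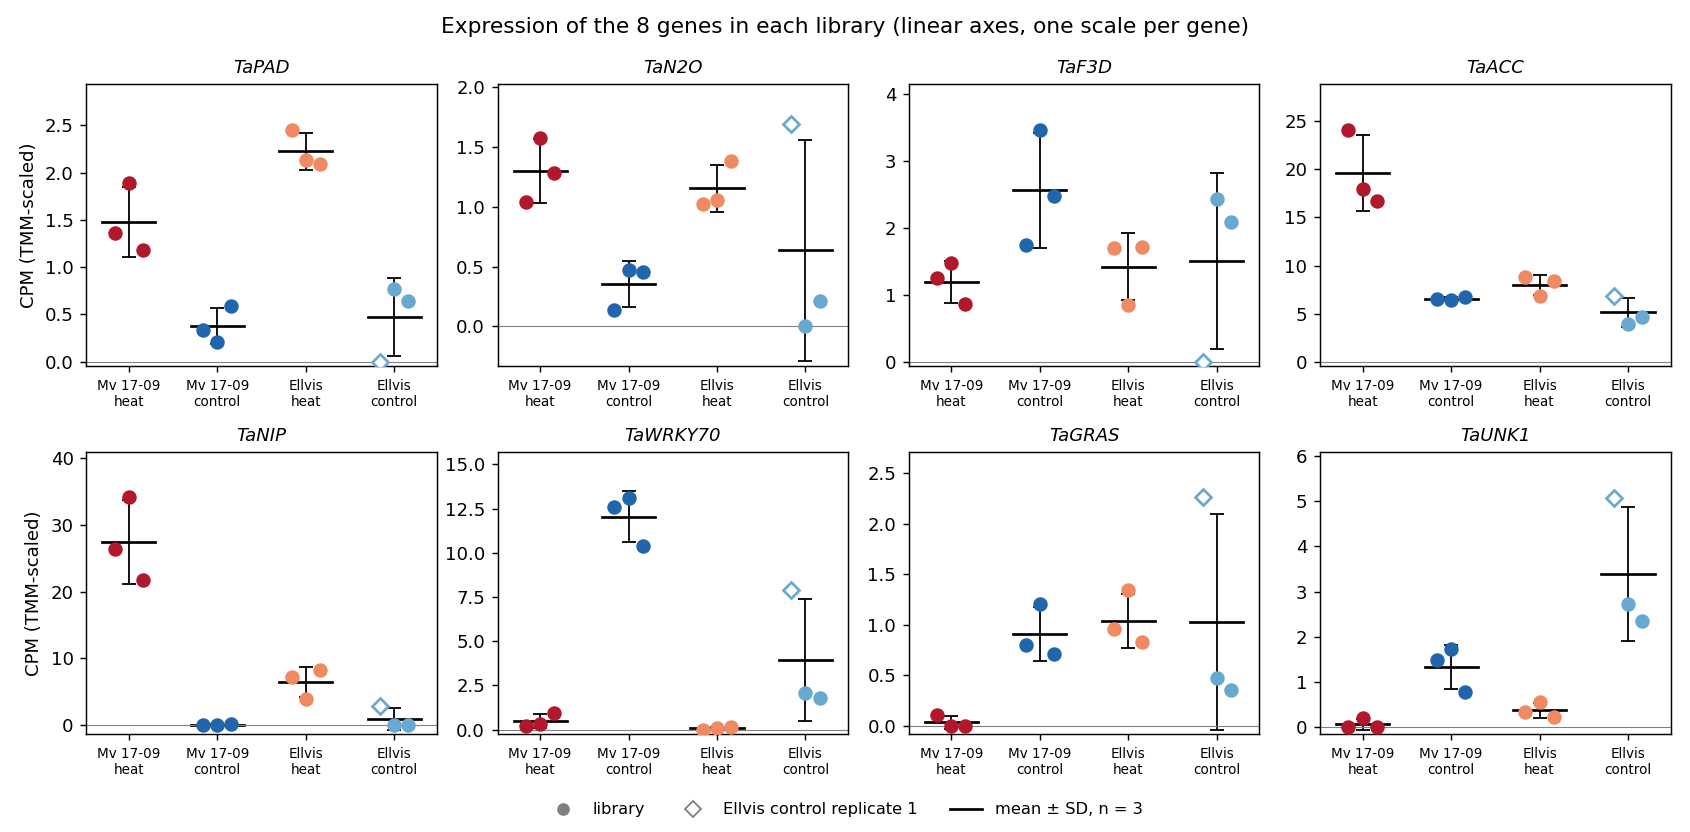
CPM of each of the 8 genes in the 12 libraries on linear axes, 1 panel and 1 scale per gene. Points are libraries, black lines the mean ± SD (n = 3), and the open diamond is ‘Ellvis’ control replicate 1, which lies above the other 2 ‘Ellvis’ controls for TaN2O, TaACC, TaNIP, TaWRKY70, TaGRAS and TaUNK1 and is at 0 for TaPAD and TaF3D.

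TaPAD, the reductase gene, was higher under heat in both cultivars, by similar folds. It had 13, 18 and 11 counts (1.36, 1.89 and 1.18 CPM) in heat-stressed ‘Mv 17-09’, against 5, 4 and 9 counts (0.335, 0.21 and 0.586 CPM) in controls. In heat-stressed ‘Ellvis’ it had 36, 38 and 38 counts (2.45, 2.13 and 2.09 CPM), against 0, 13 and 9 counts (0, 0.77 and 0.645 CPM) in controls. The heat-stressed libraries lay above the controls in both cultivars, and the highest levels were those of heat-stressed ‘Ellvis’. The log2 fold change was 1.97 (SE 0.46) in ‘Mv 17-09’ and 1.75 (SE 0.43) in ‘Ellvis’, a difference of 0.22 (SE 0.63). Without control replicate 1 the ‘Ellvis’ value was 1.62 (SE 0.38).

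The fitted heat changes of the flavanone dioxygenase genes had opposite signs. With all libraries neither gene met the threshold used for calls in either cultivar. TaN2O had 10, 15 and 12 counts (1.04, 1.57 and 1.28 CPM) in heat-stressed ‘Mv 17-09’, against 2, 9 and 7 counts (0.134, 0.472 and 0.456 CPM) in controls. It had 15, 19 and 25 counts (1.02, 1.06 and 1.38 CPM) in heat-stressed ‘Ellvis’, against 3, 0 and 3 counts (1.69, 0 and 0.215 CPM) in controls. Control replicate 1 of ‘Ellvis’ owed the highest CPM of all 12 libraries to 3 counts, and without it the heat-stressed libraries of both cultivars lay above all controls. The log2 fold change of TaN2O was 1.82 (SE 0.70) in ‘Mv 17-09’ and 2.41 (SE 0.88) in ‘Ellvis’, or 3.45 (SE 0.95) in ‘Ellvis’ without that library. By summed counts, 59 in heat-stressed ‘Ellvis’ against 6 in controls gave a ratio of 6.32 (95% exact interval 2.74 to 17.9), and 59 against 3 without control replicate 1 gave 12 (3.9 to 59.6). Without ‘Ellvis’ control replicate 2, the one at 0, the fitted ‘Ellvis’ value was 1.34.

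TaF3D, the other dioxygenase gene, had the smallest fitted heat change of the 8 genes in ‘Mv 17-09’, and in ‘Ellvis’ it was called under none of the alternatives. It had 12, 14 and 8 counts (1.25, 1.47 and 0.856 CPM) in heat-stressed ‘Mv 17-09’, against 26, 66 and 38 counts (1.74, 3.46 and 2.47 CPM) in controls. Heat-stressed ‘Ellvis’ had 25, 15 and 31 counts (1.7, 0.84 and 1.71 CPM), against 0, 41 and 29 counts (0, 2.43 and 2.08 CPM) in controls. Its ranges did not overlap in ‘Mv 17-09’, and in ‘Ellvis’ they overlapped through the control library without a count. The log2 fold change was -1.11 (SE 0.44) in ‘Mv 17-09’ and -0.52 (SE 0.43) in ‘Ellvis’, or -0.69 (SE 0.34) in ‘Ellvis’ without that library.

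TaWRKY70 was nearly absent after heat stress in both cultivars, although their controls differed in level. It had 2, 3 and 9 counts (0.208, 0.315 and 0.963 CPM) in heat-stressed ‘Mv 17-09’, against 188, 249 and 160 counts (12.6, 13.1 and 10.4 CPM) in controls. Heat-stressed ‘Ellvis’ had 0, 2 and 3 counts (0, 0.112 and 0.165 CPM), against 14, 35 and 25 counts (7.91, 2.07 and 1.79 CPM) in controls. No heat-stressed library came near a control of its own cultivar. The ratio of summed counts was 0.0406 in ‘Mv 17-09’ (95% exact interval 0.022 to 0.0686) and 0.0434 in ‘Ellvis’ (0.0137 to 0.106). The log2 fold changes, -4.59 (SE 0.60) in ‘Mv 17-09’ and -4.53 (SE 0.96) in ‘Ellvis’, differed by -0.06 (SE 1.13). Without ‘Ellvis’ control replicate 1 the ‘Ellvis’ value was -4.19 (SE 0.72), and the difference was -0.41 (SE 0.85). Without heat-stressed ‘Mv 17-09’ replicate 3, which held 9 of the 14 counts after heat stress, the ‘Mv 17-09’ value was -5.49.

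TaGRAS was the 1 member whose fitted heat change had opposite signs in the cultivars. It had 1, 0 and 0 counts (0.104, 0 and 0 CPM) in heat-stressed ‘Mv 17-09’, against 12, 23 and 11 counts (0.805, 1.21 and 0.716 CPM) in controls. Heat-stressed ‘Ellvis’ had 14, 24 and 15 counts (0.954, 1.34 and 0.826 CPM), against 4, 8 and 5 counts (2.26, 0.474 and 0.358 CPM) in controls. In ‘Mv 17-09’ the gene was thus nearly without counts after heat stress, whereas in ‘Ellvis’ the heat-stressed libraries lay above controls 2 and 3 and below control 1. The ratio of summed counts in ‘Mv 17-09’, 1 against 46, was 0.0376 (95% exact interval 9.32e-04 to 0.22). In ‘Ellvis’, 53 against 17 counts gave 2 (1.14 to 3.69), and 53 against 13 without control replicate 1 gave 2.48 (1.33 to 4.96). The log2 fold change was -4.38 (SE 1.56) in ‘Mv 17-09’ and 0.81 (SE 0.59) in ‘Ellvis’, or 1.29 (SE 0.52) in ‘Ellvis’ without that library. The heat changes differed by -5.19 (SE 1.67), or by -5.71 (SE 1.51) without it. Without heat-stressed ‘Mv 17-09’ replicate 1, which held the single count, the fitted ‘Mv 17-09’ value was -6.69, and no bound should be read from it.

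TaUNK1, of unknown function, was lower under heat in both cultivars. It had 0, 2 and 0 counts (0, 0.21 and 0 CPM) in heat-stressed ‘Mv 17-09’, against 22, 33 and 12 counts (1.48, 1.73 and 0.781 CPM) in controls. Heat-stressed ‘Ellvis’ had 5, 10 and 4 counts (0.341, 0.56 and 0.22 CPM), against 9, 46 and 33 counts (5.08, 2.73 and 2.36 CPM) in controls. The ‘Ellvis’ groups were each above the ‘Mv 17-09’ group of the same treatment, without overlap, but by 0.22 against 0.21 CPM between the nearest heat-stressed libraries, which is less than the worth of 1 count in either. The summed ratio was 0.0516 in ‘Mv 17-09’, from 2 against 67 counts (95% exact interval 0.00613 to 0.194), and 0.139 in ‘Ellvis’, from 19 against 88 (0.0798 to 0.23). The log2 fold change was -4.08 (SE 1.17) in ‘Mv 17-09’ and -2.94 (SE 0.53) in ‘Ellvis’, a difference of -1.15 (SE 1.28). Without heat-stressed ‘Mv 17-09’ replicate 2, which held both counts, the fitted ‘Mv 17-09’ value was -7.22, likewise no bound, and the difference was -4.29.

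**Figure D2:**
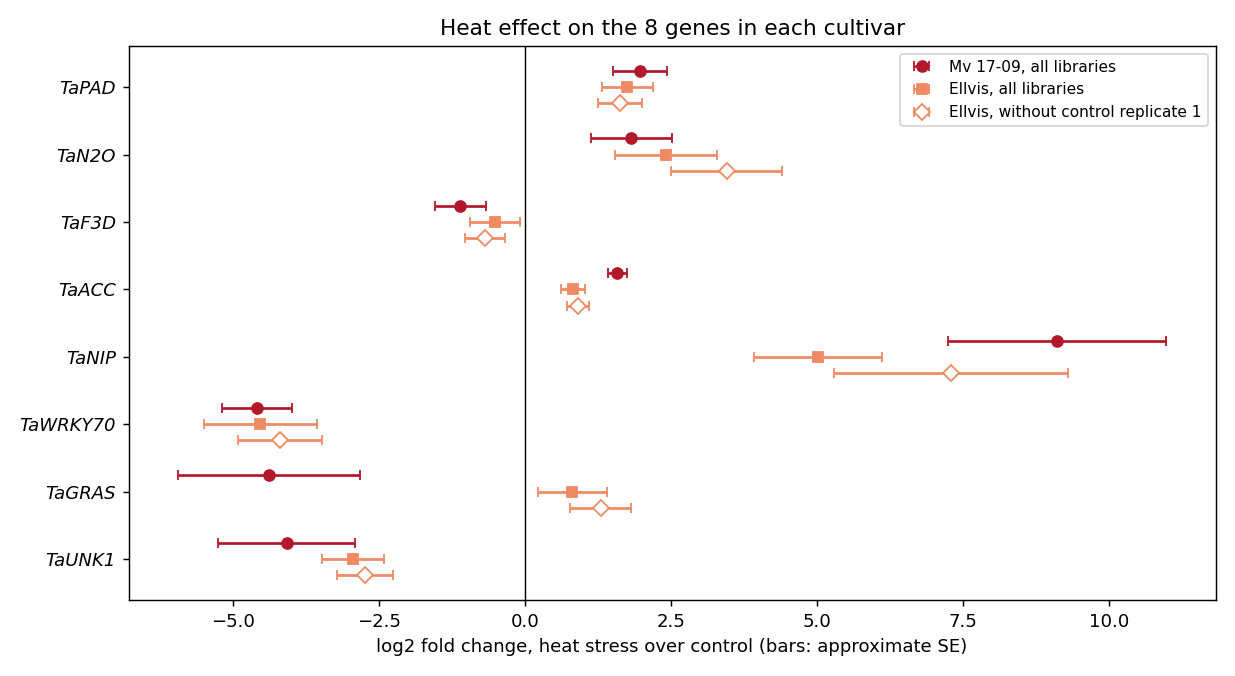
Fitted log2 fold change of heat stress over control for the 8 genes, with approximate SE as bars. Filled circles are ‘Mv 17-09’, filled squares ‘Ellvis’, and open diamonds ‘Ellvis’ without control replicate 1. TaNIP lies farthest to the right in both cultivars, and TaGRAS at -4.38 in ‘Mv 17-09’ and 0.81 in ‘Ellvis’.

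Across the 8 genes, the sign of the heat change was shared by the cultivars for 7, with positive values for 4 (TaPAD, TaN2O, TaACC and TaNIP) and negative values for 3 (TaWRKY70, TaUNK1 and TaF3D). Calls required an adjusted p below 0.05 (Benjamini-Hochberg, quasi-likelihood test of edgeR) together with a change of 2-fold or more. In ‘Mv 17-09’ 3 members were called higher and 3 lower, where 4.67% of all 70527 genes tested were called higher and 6.93% lower. In ‘Ellvis’ 2 were called higher and 2 lower, where 1.98% of all genes were called higher and 1.64% lower. Because these contrasts chose the members, nothing is read from the counts. Without ‘Ellvis’ control replicate 1 the members called were 8 in ‘Mv 17-09’, with TaN2O and TaF3D added, and 5 in ‘Ellvis’, with TaN2O added. The shares of all genes called in that fit were not computed. Of the calls in ‘Ellvis’, that of TaNIP was lost with DESeq2, and that of TaPAD in a fit of ‘Ellvis’ alone and without ‘Ellvis’ control replicate 2 or 3 or heat-stressed ‘Ellvis’ replicate 1 or 3. The median log2 fold change of the members was 0.24 in ‘Mv 17-09’ and 0.82 in ‘Ellvis’ (1.1 without that library), beside a median over all genes of 0.00 in both. All 8 members passed the low-count filter. In ‘Mv 17-09’ the heat-stressed libraries lay above all controls for 4 members and below them for 4. In ‘Ellvis’ they lay above for 3 and below for 2, and for TaGRAS, TaN2O and TaF3D the ranges overlapped only through control replicate 1. How many of all genes have ranges apart in this way was not computed. With 3 libraries per group and members chosen on their heat change, nothing is read from these counts either.

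The level of the genes in 1 cultivar against the other, averaged over heat stress and control, was not used to choose them and was tested. However, the average includes the heat-stressed groups that the choice used, so its p-values are not independent of that choice. For TaGRAS and TaUNK1 it leans on heat-stressed ‘Mv 17-09’ with 1 and 2 counts. For TaWRKY70 the heat-stressed groups held 14 counts in ‘Mv 17-09’ and 5 in ‘Ellvis’. For TaACC the cultivars differed more under heat stress (19.6 against 8.01 CPM) than in controls (6.54 against 5.12 CPM). TaWRKY70 was 4.75-fold higher in ‘Mv 17-09’ than in ‘Ellvis’ (log2 difference 2.25, SE 0.57, edgeR adjusted p = 0.00282), with all 6 ‘Mv 17-09’ libraries above the 3 ‘Ellvis’ libraries of the same treatment. Under heat stress the nearest libraries, at 0.208 CPM from 2 counts in ‘Mv 17-09’ and 0.165 CPM from 3 counts in ‘Ellvis’, lay closer than the worth of 1 count. TaGRAS was lower in ‘Mv 17-09’ (-1.97, SE 0.84, edgeR adjusted p = 0.0173), and TaUNK1 was lower too (-1.70, SE 0.64, edgeR adjusted p = 0.0167). For TaGRAS the average hides a crossing. Its means were 0.0347 ± 0.0602 CPM in heat-stressed ‘Mv 17-09’ and 1.04 ± 0.269 CPM in heat-stressed ‘Ellvis’, whereas the ‘Mv 17-09’ controls at 0.716 to 1.21 CPM lay above ‘Ellvis’ controls 2 and 3 at 0.474 and 0.358 CPM. Thus 1 of 8 members was called higher in ‘Mv 17-09’, where 7.36% of all genes were, and 2 were called lower, where 11.1% were. Without heat-stressed ‘Mv 17-09’ replicate 3, TaGRAS alone was called, TaWRKY70 having a log2 difference of 1.81 (edgeR adjusted p = 0.0504) and TaUNK1 one of -1.43 (edgeR adjusted p = 0.05, just above the threshold). TaUNK1 was also not called without heat-stressed ‘Mv 17-09’ replicate 1 (-1.39, edgeR adjusted p = 0.0573) or heat-stressed ‘Ellvis’ replicate 2 (-1.49, 0.0555), and TaGRAS not without heat-stressed ‘Mv 17-09’ replicate 2 (-1.73, 0.052). Leaving out the library that held the last counts gave -3.09 for TaGRAS (heat-stressed ‘Mv 17-09’ replicate 1) and -3.25 for TaUNK1 (replicate 2).

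**Figure D3:**
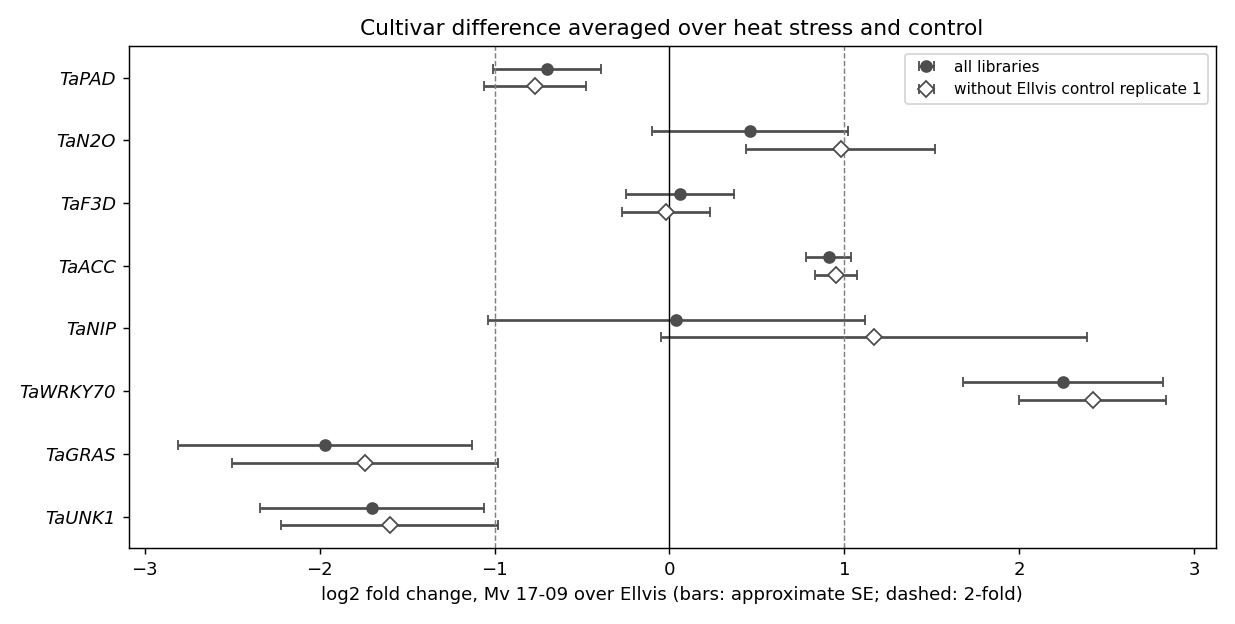
Log2 difference of ‘Mv 17-09’ over ‘Ellvis’ averaged over treatments, with approximate SE as bars, from all libraries (filled circles) and without ‘Ellvis’ control replicate 1 (open diamonds). Dashed lines mark 2-fold. TaWRKY70 lies to the right of the 2-fold line at 2.25, and TaGRAS and TaUNK1 lie to the left at -1.97 and -1.70.

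Of the other 5 members, TaACC passed the adjusted p but not the fold threshold. It was 1.88-fold higher in ‘Mv 17-09’ (log2 difference 0.91, SE 0.13, edgeR adjusted p = 4.52e-05). Without ‘Ellvis’ control replicate 1 the log2 difference was 0.95 (SE 0.12), and the ‘Mv 17-09’ libraries then lay above the ‘Ellvis’ libraries in heat-stressed and in control anthers. TaPAD had a value of -0.70 (SE 0.31, edgeR adjusted p = 0.0876), or -0.77 (edgeR adjusted p = 0.0306) without ‘Ellvis’ control replicate 1, still under 2-fold. TaN2O had 0.46 (SE 0.56, edgeR adjusted p = 0.547) and TaF3D 0.06 (SE 0.31, edgeR adjusted p = 0.905). TaNIP had 0.04 (SE 1.08, edgeR adjusted p = 0.972), and 1.17 (SE 1.22, edgeR adjusted p = 0.431) without that library.

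How far the members moved together was described by Pearson's r of log2 CPM over the 12 libraries, which share 4 groups and the shallow library. The members were chosen on their heat change in these same libraries. High values of r between them, positive or negative, therefore partly restate that choice, and r within groups was not computed. TaNIP correlated with TaACC at 0.85 and with TaN2O at 0.85, and TaWRKY70 ran opposite to TaPAD at -0.88. TaUNK1 ran opposite to TaACC at -0.85. Several pairs depended on ‘Ellvis’ control replicate 1, such as TaPAD and TaF3D with 0.38 over 12 libraries and -0.66 over 11, and TaPAD and TaN2O with 0.25 and 0.68. Among 57124 genes averaging 1 CPM or more, the profile most like that of TaNIP was TraesCS6A03G0804000 (r = 0.99), on the A-genome chromosome of the same group. Its mean levels were 28.8 ± 7.12 CPM in heat-stressed ‘Mv 17-09’ and 0.0875 ± 0.0993 CPM in controls, and 6.25 ± 2.70 CPM in heat-stressed ‘Ellvis’ and 0.652 ± 0.903 CPM in controls (SD, n = 3 each), close to those of TaNIP in each group. For TaACC the most similar profile was that of TraesCS2A03G0131600 (r = 0.99), with 53.6 ± 8.22 CPM in heat-stressed ‘Mv 17-09’ and 17.4 ± 1.43 CPM in controls. For TaWRKY70 it was TraesCS6A03G0928700 (r = 0.98) and for TaUNK1 TraesCS7D03G0252000 (r = 0.98). No source used here pairs these IDs with a name, and they do not say how reads shared by near-identical copies were assigned. For TaGRAS the most similar profile was that of TraesCS5D03G0557000 (r = 0.98), which the study lists as an ortholog of the tapetal regulator MS1. This gene had 11.5 ± 1.65 CPM in heat-stressed ‘Mv 17-09’ and 64.6 ± 3.27 CPM in controls. In ‘Ellvis’ it had 79.5 ± 6.31 CPM under heat stress and 88.7 ± 90.6 CPM in controls (SD, n = 3 each). That control mean includes replicate 1 and its SD exceeds it, so no direction of change in ‘Ellvis’ is read from these 2 means. Means without control replicate 1 were not computed for the most similar genes. The most similar genes of TaPAD, TaN2O and TaF3D were at 0.96 to 0.98, and that of TaF3D was at 0.92 without ‘Ellvis’ control replicate 1.

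The high-confidence gene models on either side of each member by ID gave 16 neighbours, of which 8 were tested. In ‘Mv 17-09’ 2 were called, where 4.67% of all genes tested were called higher and 6.93% lower. They lay on the 2 sides of TaACC and changed in opposite directions, with log2 fold changes of 2.16 and -1.13. The neighbour at 2.16 had 127 counts in all libraries together. Nothing is read from so few genes. In ‘Ellvis’ 0 were called by edgeR, where 1.98% of all genes were called higher and 1.64% lower, with log2 fold changes from -0.57 to 1.17.

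Beside the members, 14 orthologs of PKSA, PKSB, TKPR1 and TKPR2 with an ID in the sources used here were described. PKSA and PKSB are polyketide synthases of the chalcone synthase family, and TKPR1 and TKPR2 are pyrone reductases. Together they make sporopollenin precursors in the tapetum, so they are also part of the tapetum marker list. No member is annotated as either kind of enzyme. All 14 were called lower by edgeR in heat-stressed ‘Mv 17-09’, where 6.93% of all genes were. Their log2 fold changes were from -3.92 to -1.99 with a median of -2.58, against a median of 0.00 over all genes. DESeq2 called 13 of them lower in ‘Mv 17-09’ and limma voom 14. In ‘Ellvis’ 0 of 14 were called by edgeR, 4 having an unadjusted p under 0.05 and a 2-fold lower level, with a median of -0.25. DESeq2 and limma voom also called 0 there, and without control replicate 1 edgeR gave 0 at the unadjusted threshold, with a median of 0.01. The member with the highest mean, a PKSA ortholog (TraesCS1D03G0407100), had 299 ± 46.3 CPM in heat-stressed ‘Mv 17-09’ and 1350 ± 49 CPM in its controls, and 992 ± 35.4 CPM in heat-stressed ‘Ellvis’ and 1160 ± 121 CPM in its controls (SD, n = 3 each). Its log2 fold change was -2.18 (SE 0.16, edgeR adjusted p = 2.98e-07) in ‘Mv 17-09’ and -0.23 (SE 0.16, edgeR adjusted p = 0.459) in ‘Ellvis’. Among the members, TaPAD, TaACC and TaNIP were called higher in heat-stressed ‘Mv 17-09’. TaWRKY70, TaGRAS and TaUNK1 were called lower there, with log2 fold changes of -4.59, -4.38 and -4.08. With all libraries, TaN2O and TaF3D were not called there.

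The study's qPCR reference genes, an actin gene (TaACT, TraesCS5D03G0333200) and a gene named TaCYC (TraesCS6D03G0139300), were not level in the counts. TaACT had 31.4 ± 2.42 CPM in heat-stressed ‘Mv 17-09’ and 40.5 ± 0.747 CPM in controls, and 32.4 ± 3.05 CPM in heat-stressed ‘Ellvis’ and 40 ± 4.83 CPM in controls. TaCYC had 287 ± 12.1 CPM in heat-stressed ‘Mv 17-09’ and 198 ± 1.56 CPM in controls, against 333 ± 16.8 CPM in heat-stressed ‘Ellvis’ and 343 ± 112 CPM in controls (SD, n = 3 each). Without control replicate 1 the ‘Ellvis’ controls averaged 42.8 ± 0.565 CPM for TaACT and 407 ± 17.6 CPM for TaCYC (SD, n = 2). Heat-stressed ‘Ellvis’, at 314 to 346 CPM of TaCYC, then lay below its controls. When these genes set the scale, the all-gene median shifted by -0.074 (log2) in ‘Mv 17-09’ and 0.26 in ‘Ellvis’, and TaACC was then called in ‘Ellvis’ with a log2 fold change of 1.1.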

How the data were processed

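The deposited values are raw counts per gene model for 12 anther libraries. Per the study's methods, the authors ran FastQC 0.11.8 on the reads and used CLC Genomics Workbench to trim and map them, with IWGSC RefSeq v2.1 as the genome. The library kit keeps strand, but no source used here gives the strand setting of the counting or the treatment of multi-mapping reads. Library totals were 1831675 to 20846135 counts. Genes were kept by filterByExpr (minimum count 10, minimum total 15), leaving 70527. Counts were scaled by TMM and fitted in 4 groups with the quasi-likelihood method of edgeR 4.0.16 in R 4.3.3, after a test on simulated data. Approximate standard errors were Wald errors of the fitted group means, scaled by the quasi-dispersion; the tests rest on F statistics and not on them. The deposited file of 1 heat-stressed ‘Mv 17-09’ library, labelled replicate 3, carries the tag of replicate 2 in its name, and the label was followed. Correlations used log2 CPM with a prior count of 2. Ratios of summed counts have exact conditional binomial 95% intervals. Alternatives were library totals as scaling, scaling by the qPCR reference genes, no low-count filter, DESeq2 1.42.0, limma voom (limma 3.58.1), each cultivar alone, a replicate block and leaving out each library. Named genes were the members, the qPCR reference genes, the most correlated gene of each member (unnamed IDs at most 2 higher and 2 lower), its neighbours by ID and the highest polyketide synthase or pyrone reductase gene. Members and lists were chosen with earlier results of these data known.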

Additional observations from a re-analysis of the deposited data

How the results depend on the processing

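Under the alternatives, the heat log2 fold changes of the members kept their direction in both cultivars wherever a value could be fitted. Of these values, 10 of 158 in ‘Mv 17-09’ and 2 of 160 in ‘Ellvis’ were marked as moved, by a spread that was not the SE. TaN2O in ‘Ellvis’ (2.41, SE 0.88) was 1.34 without control replicate 2 and 3.50 with limma voom, both unmarked. TaNIP in ‘Mv 17-09’ (9.10, SE 1.87) was marked at 8.65 without control replicate 1. The lower number in ‘Ellvis’ is thus no sign of steadier values. Library-total scaling gave a cultivar difference of -0.03 for TaNIP and -0.02 for TaF3D, and DESeq2 gave -1.06 for TaNIP and a difference between heat changes of 0.46 for TaWRKY70. Without the low-count filter, 3 of the 14 polyketide synthase and pyrone reductase genes were called lower in ‘Ellvis’. Leaving out 1 library at a time gave 1 to 3 members called for the cultivar difference. It gave cultivar differences of -1.17 to 1.17 for TaNIP, -0.08 to 0.98 for TaN2O and -0.09 to 0.19 for TaF3D. It gave differences between heat changes of -0.11 to 0.66 for TaPAD, -1.64 to 0.47 for TaN2O and -0.96 to 0.52 for TaWRKY70. The cause was not tested. Over 18 alternatives, adjusted p for the cultivar difference was 1.97e-07 to 0.0504 for TaWRKY70, 0.00533 to 0.052 for TaGRAS, 0.00405 to 0.0573 for TaUNK1 and 3.46e-07 to 0.000443 for TaACC.

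The replicate numbers did not clearly pair the libraries. Deviations correlated at -0.0521 to 0.179 in 18 same-number pairs and -0.181 to 0.0862 in 36 different-number pairs, and 6 of 12 libraries correlated best with their own number. Within a cultivar the 6 same-number pairs correlated at 0.000877 to 0.179. Those of ‘Ellvis’ were at 0.179, 0.0982 and 0.0797, while a different-number ‘Ellvis’ pair reached 0.0862. Whether the numbers pair the ‘Ellvis’ libraries was thus not settled. With a replicate block, the members called were 3 for the cultivar difference, 6 for heat in ‘Mv 17-09’ and 4 in ‘Ellvis’, as without it, and the difference between heat changes of TaWRKY70 was 0.01. Depth limits TaPAD, TaN2O, TaGRAS and TaUNK1, which had at most 46 counts in any library.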
